A study of Mus musculus with 24 samples.

Results

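The subtelomeric tiles were windows of 10 kb in the last 1 Mb before the highest table position of each of the 19 mouse autosomes. They were chosen by position, and a tile was kept where it held 5 or more CpG rows and 30 or more methylation calls in every library. Of 1872 windows with a CpG row, 1821 passed, out of 233969 autosomal tiles and 248191 autosomal and X tiles that passed in all. Methylation was read as methylated calls over all calls. The comparison tiles lay 5 to 10 Mb further inside on the same chromosome (9206 tiles), and 1399 members were matched to 1 inner tile each with a CpG number within 20%. The other 422 members found no match and had a median of 32 CpG rows, against 70 in the matched members.

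Libraries came from mouse induced pluripotent stem (iPS) cells, which are cells reset to a state like that of the early embryo. Wild-type cells (WT) were compared with N5 and N9, clones that carry a knock-in of the microRNA miR-203 induced by doxycycline (DOX). Each line was read before DOX (t=0), at day 10 (5 days after a pulse of 5 days), at day 25 (20 days after the pulse) and as embryoid bodies. The labels of the wild-type embryoid bodies give 10 days of differentiation, while the series' design text gives 7 days and day 32. The wild type passed through the same stages and has no knock-in. Cells grew over feeder cells, and each clone is 1 cell line, so that n = 2 clones measures the spread between clones and not between animals. Oxidative bisulfite sequencing was used, which reads 5-methylcytosine without 5-hydroxymethylcytosine.

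All mouse autosomes have their centromere near the low-numbered end, so the high-numbered end measured here is the one next to the distal telomere. Telomeres are arrays of the repeat TTAGGG, and the unique sequence beside them is the subtelomere. In mouse cells the DNA methyltransferases Dnmt3a, Dnmt3b and Dnmt1 methylate CpGs there, and loss of these enzymes is known to go with more recombination between telomeres. Gene deserts, receptor gene families and dense gene blocks all occur at autosome ends, and islands of CpGs at gene starts are normally free of methylation.

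Shown first are 4 promoters in the last 1 Mb, each 250 bases before to 50 after the gene start, from RefSeq (GRCm38.p6) and on the gene's strand. They are shown because they cover the range of behaviour in these windows, and they were picked after their values had been seen. Capitals mark each CG. Tex19.1 and Gtsf1 are genes of germ cells and early embryos that help to silence transposable elements. Rtel1 encodes a helicase that takes apart telomere loops, and Sectm1b encodes a secreted or membrane protein of immune cells. Tex19.1 lies at chr11:121145893-121146192 (+), Gtsf1 at chr15:103430378-103430677 (-), Sectm1b at chr11:121063520-121063819 (-) and Rtel1 at chr2:181319474-181319773 (+).
Tex19.1: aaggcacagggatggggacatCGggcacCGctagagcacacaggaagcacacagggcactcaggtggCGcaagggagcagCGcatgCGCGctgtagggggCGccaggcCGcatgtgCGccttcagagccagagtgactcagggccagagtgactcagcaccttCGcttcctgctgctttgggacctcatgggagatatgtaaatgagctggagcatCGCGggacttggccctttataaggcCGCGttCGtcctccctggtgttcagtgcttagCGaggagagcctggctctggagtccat
Gtsf1: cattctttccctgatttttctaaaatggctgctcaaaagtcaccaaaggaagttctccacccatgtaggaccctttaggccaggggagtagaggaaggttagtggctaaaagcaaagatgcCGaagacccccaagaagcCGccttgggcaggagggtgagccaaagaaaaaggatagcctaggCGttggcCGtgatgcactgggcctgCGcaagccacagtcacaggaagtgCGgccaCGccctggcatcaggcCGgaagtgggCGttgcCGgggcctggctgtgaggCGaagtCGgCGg
Sectm1b: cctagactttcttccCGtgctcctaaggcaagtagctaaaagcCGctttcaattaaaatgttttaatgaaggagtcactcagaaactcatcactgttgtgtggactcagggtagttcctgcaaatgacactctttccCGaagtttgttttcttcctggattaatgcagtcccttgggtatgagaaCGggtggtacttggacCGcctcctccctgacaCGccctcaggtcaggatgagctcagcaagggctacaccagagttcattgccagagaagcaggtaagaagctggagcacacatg
Rtel1: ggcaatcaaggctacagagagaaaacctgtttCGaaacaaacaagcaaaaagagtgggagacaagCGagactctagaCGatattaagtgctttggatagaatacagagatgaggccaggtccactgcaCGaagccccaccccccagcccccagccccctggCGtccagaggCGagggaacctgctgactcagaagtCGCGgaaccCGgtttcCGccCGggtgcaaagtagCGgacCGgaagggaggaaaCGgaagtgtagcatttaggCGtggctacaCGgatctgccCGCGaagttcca

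The windows held 16 CGs at Tex19.1, 13 at Gtsf1, 6 at Sectm1b and 18 at Rtel1. At Tex19.1 the clones fell to near 0 at day 25. Its level in N5 was 23.2% at t=0, 17.5% at day 10, 2.59% at day 25 (95% Wilson interval 0.883 to 7.33%, 116 calls) and 47.6% in embryoid bodies (21 calls). In N9 it was 26.6%, 37.3%, 1.24% (0.218 to 6.67%, 81 calls) and 21.4% at the same stages. The wild type was at 26.4%, 28.6%, 32.1% and 19.6%, so both clones lay below it at day 25. The same held at day 25 in 1738 of the 1821 member tiles and in 241469 of all 248191 tiles.

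At Gtsf1 the level in N5 was 55.3%, 33.8%, 26.5% and 75.5% from t=0 to embryoid bodies. N9 had 52.4%, 50.4%, 17.0% and 81.9%, and the wild type 52.0%, 43.1%, 58.99% and 63.7%. Both clones were below the wild type at day 25 and above it in embryoid bodies. In embryoid bodies both clones were above it in 992 of the 1821 member tiles and in 142072 of all 248191 tiles. The CpG-poor Sectm1b window was at 61.4% and 75.6% in N5 and N9 at t=0 and at 38.2% and 34.7% at day 25, against 62.7% in the wild type at day 25. At Rtel1 the CpG-dense promoter was at or near 0 in every library. N5 had 2 methylated calls of 175 at t=0, and the wild type had 0 of 245, which allows a level of up to 1.22% (3 calls of the total). No test was run on these windows, and intervals and limits cover counting error only, since PCR copies are not independent molecules.

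**Figure D1:**
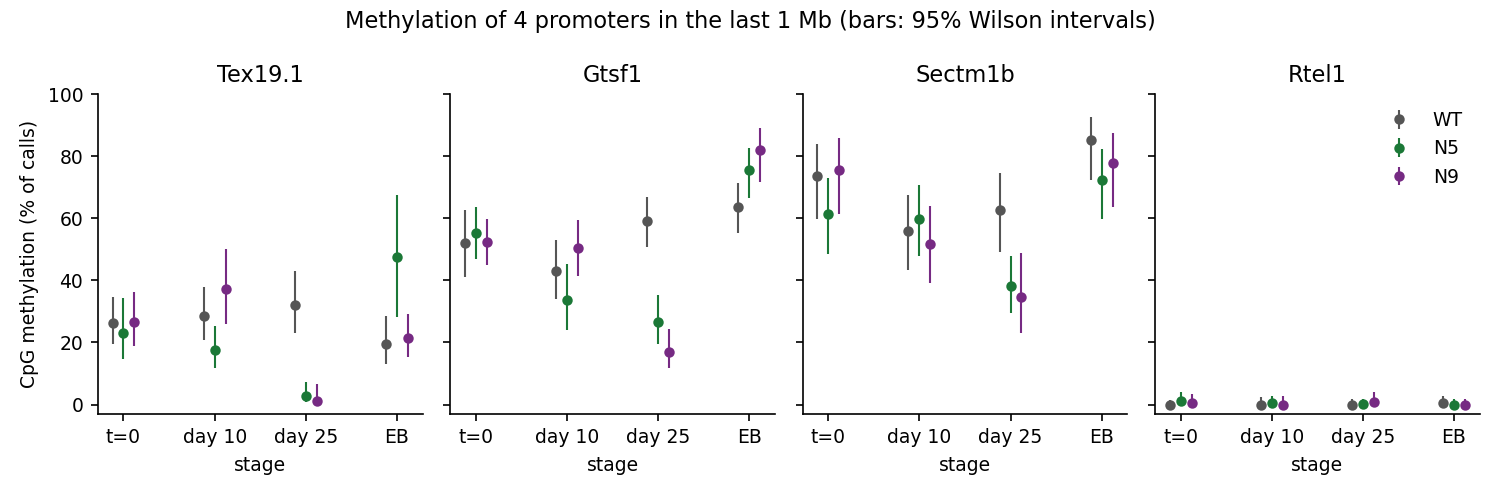
CpG methylation in percent of calls (y) at the 4 stages (x) in the promoter windows of Tex19.1, Gtsf1, Sectm1b and Rtel1, for the wild type and clones N5 and N9; points are libraries and bars are 95% Wilson intervals. At day 25 both clones lie at 2.59% and 1.24% at Tex19.1, below the wild type at 32.1%, while Rtel1 is near 0 throughout.

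In all, 339 RefSeq promoters lay in these windows, and 222 of them had 3 or more CpG rows and 10 or more calls in every library. Of the 103 covered promoters of protein-coding genes with 15 or more CpG rows, 99 were below 10% at t=0 and 98 in embryoid bodies (mean of the clones). Of the 67 with fewer rows, 44 were below 10% at t=0 and 36 in embryoid bodies. The telomere repeat unit TTAGGG, searched on both strands, occurred in 39 of the 339 promoters (11.5%) and in 10.6% of all 32619 promoters of the same length. None of the 4 printed sequences holds it.

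The members were less methylated than matched inner tiles in all 12 libraries. In the wild type the matched members stood at 54.7%, 55.7%, 55.3% and 62.8% over the stages, from t=0 through both DOX time points to embryoid bodies. Their inner partners stood at 62.2%, 63.4%, 63.1% and 71.3%. In N5 the members were at 58.2%, 54.5%, 43.5% and 64.7%, and the inner tiles at 66.9%, 62.3%, 50.6% and 73.4%. In N9 the members were at 58.6%, 55.3%, 43.4% and 63.2%, and the inner tiles at 67.2%, 63.0%, 49.97% and 72.8%. The difference ran from -9.59 points (N9 embryoid bodies) to -6.61 points (N9 day 25), with a mean over the libraries of -8.02 points. It exceeded the SD between clones, which was 0.0786 to 0.579 points by stage (n = 2). Chromosomes and tiles share a library and are not replicates, so no test was made of this difference.

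As a ratio, the members' level was 86.0% to 88.1% of the inner level in every library. The difference in points therefore moved with the level itself. In the clones it was -8.65 ± 0.101 points at t=0 and -7.71 ± 0.0786 at day 10 (SD, n = 2). At day 25 it was -6.85 ± 0.336 and in embryoid bodies -9.18 ± 0.579 points. From t=0 to day 25 it shrank by 1.64 points in N5 and 1.97 in N9, while the wild type moved by -0.237. The exact permutation test of 2 against 2 libraries gave the smallest p it allows, 0.3333 (two-sided). In embryoid bodies the difference was wider than in the iPS stages of the same line by 1.26 points, in all 3 lines (exact permutation within lines, 64 assignments, two-sided p = 0.0312). On the ratio the same exact permutation test gave a difference of 0.00319 and p = 0.406. The widening in points was not past the threshold when tile levels were averaged with equal weight (-0.157 points), or with the last 2 Mb in place of 1 Mb (-0.676 points).

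**Figure D2:**
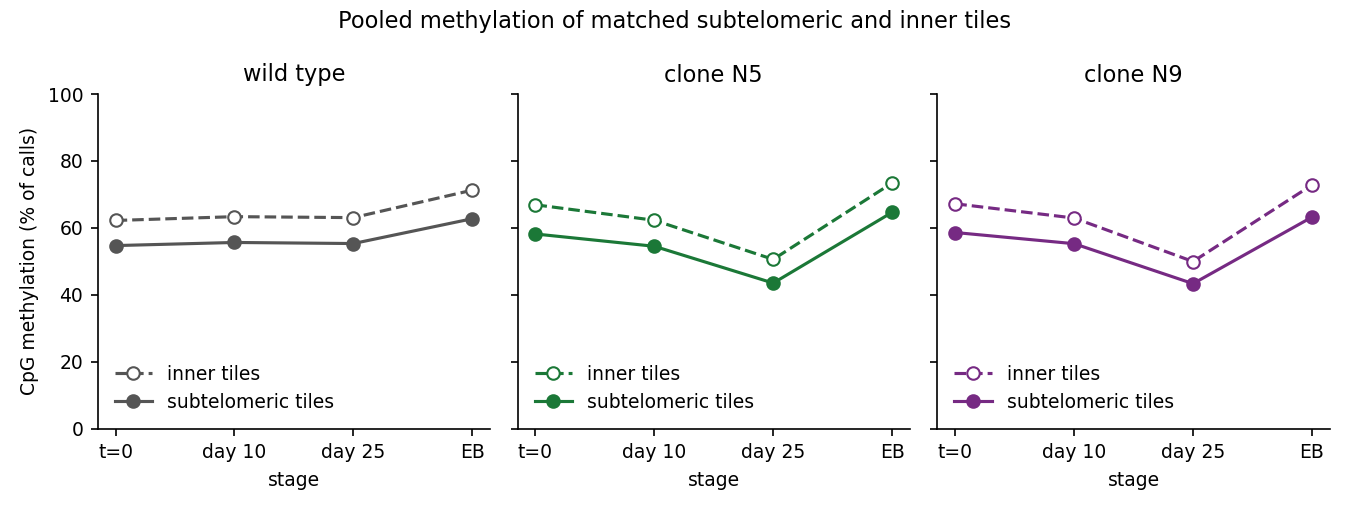
Pooled CpG methylation in percent of calls (y) at the 4 stages (x) for the 1399 matched subtelomeric tiles (filled, solid) and their 1399 inner partners (open, dashed) in the wild type, N5 and N9. The subtelomeric line lies 6.61 to 9.59 points below the inner line in each library, and both lines dip at day 25 in the clones only.

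Over all 1821 members, pooled levels in the wild type were 55.9%, 56.9%, 56.5% and 63.98%. N5 had 59.5%, 55.8%, 44.6% and 65.9%, and N9 had 59.8%, 56.5%, 44.5% and 64.7%. At day 25 both clones lay below the wild type, and at the other stages the lines differed by less than 5 points. The members kept 75.0% and 74.3% of their t=0 level at day 25 in N5 and N9. Matched inner tiles kept 75.6% and 74.3%, and all autosomal tiles 74.7% and 73.6%. The clone mean over the members was 74.6% ± 0.508 (SD, n = 2), and over the matched members 74.4% ± 0.598. Over the matched inner tiles it was 75.0% ± 0.912, and both of the other means lay within that SD. In embryoid bodies the members reached 109.5% ± 1.96 of the clones' t=0 level. Calls per CpG row of chromosome X, as a ratio to the autosomes, also moved between the clones' stages. In N5 it was 0.517, 0.692, 0.598 and 0.635 by stage, and in N9 0.518, 0.683, 0.614 and 0.514. In the wild type it was 0.611 to 0.676. Its part in the members' levels was not tested.

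Single members varied more than the matched inner tiles, though the 2 sets are not partners here. The clone mean at t=0 ran from 30.1% to 82.4% between the 5th and 95th percentile, with an SD of 15.3 points over all 1821 members. The SD over the 1399 matched inner tiles was 11.7 points. N5 and N9 differed in a member by a median of 3.07 points at t=0 and 3.31 at day 25. Matched members with a level under 20% made up 2.36% at t=0, against 0.786% of inner tiles, and 9.08% against 3.22% lay between 20 and 40%. Of the 33 members under 20%, 17 (51.5%) held the start of a protein-coding gene, and they came from 15 autosomes. In contrast, 64 of the 1273 members between 60 and 80% did so.

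Gene starts were more common at the autosome ends than inside. Of the matched members, 12.4% held a gene start, 43.8% a gene body only and 43.8% no protein-coding gene. Among the matched inner tiles 6.36% held a gene start. Tiles with gene starts were at similar levels in both places, at 36.2% ± 0.399 in matched members and 37.1% ± 0.549 in matched inner tiles at t=0 (clone mean and SD, n = 2). Tiles with gene bodies only were at 63.98% ± 0.351 and 70.1% ± 0.0125, and tiles with no gene at 66.2% ± 0.211 and 72.3% ± 0.210. When pairs were matched on this content too (1234 pairs, an alternative added after seeing the data), the mean difference was -7.26 points. It stayed below 0 in 12 of 12 libraries.

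The difference was larger in CpG-dense tiles. At t=0 it was -2.88 ± 0.0961 points in pairs whose member held 5 to 59 CpG rows, and -6.39 ± 0.226 with 60 to 99 rows. With 100 or more but fewer than 150 rows it was -13.2 ± 0.0356, and with 150 or more rows -14.1 ± 0.320 (clone mean and SD, n = 2). At day 25 the densest class stood at -8.78 ± 0.834 points and in embryoid bodies at -15.7 ± 0.113. All 12 libraries lay below 0 in each of the 4 classes. Members with 150 or more rows were at 33.6% ± 0.861, 24.2% ± 0.339 and 36.8% ± 2.03 at t=0, day 25 and the embryoid body stage. Members with 30 to 59 rows were at 70.8% ± 0.00280, 54.6% ± 0.758 and 78.5% ± 1.12. The member with the most CpG rows (397, chr4:156230001-156240000) covers Klhl17 and Noc2l and was at 30.8% ± 2.13, 23.3% ± 6.07 and 33.9% ± 6.51.

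**Figure D3:**
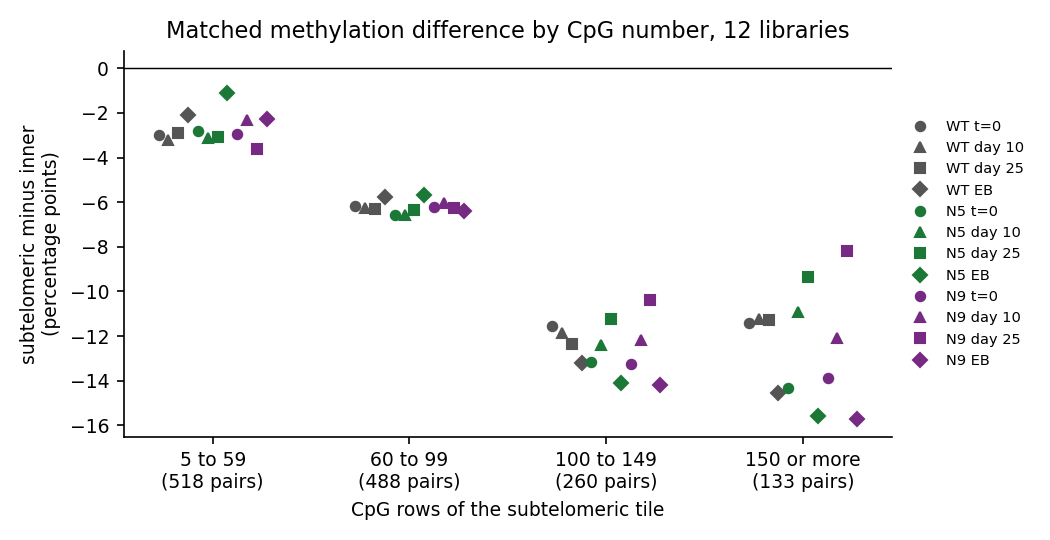
Difference in CpG methylation, subtelomeric minus matched inner tiles in percentage points (y), by the CpG rows of the subtelomeric tile (x); each point is 1 of 12 libraries. All points are below 0, between -1.10 and -3.61 in the sparsest class and between -8.20 and -15.7 in the densest.

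The autosomes were unequal. The members were below the inner tiles on 17 of 19 autosomes in the wild type at t=0 and on 18 of 19 in the other 11 libraries. Chromosome 15 had the lowest members, at 41.4% ± 0.384 at t=0 in the clones, and differences of -20.4 to -27.0 points. Its last 1 Mb holds the Hoxc genes, transcription factors that set position along the body axis and that are held unmethylated under Polycomb in stem cells. The 9 Hoxc tiles were at 13.5% and 12.8% in N5 and N9 at t=0 and at 10.1% and 10.7% at day 25. Embryoid bodies had 23.3% and 22.4% there, and the wild type 11.9%, 13.0% and 22.5% at these 3 stages. Without them the chromosome 15 pairs still differed by -23.1 and -21.3 points in N5 and N9 at t=0 (60 pairs). In these pairs 18.3% of the members and 1.67% of the inner tiles held a gene start, and the part of this in the difference was not tested. Leaving out the whole chromosome gave a mean difference of -6.61 points over the libraries.

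Chromosome 13 went the other way, with members above inner tiles by 4.19 to 10.3 points in all 12 libraries. There 63.6% ± 0.423 of calls were methylated in its 66 members at t=0, and 58.2% in the inner partners. Its last 1 Mb carries Tcstv1 and Tcstv3, genes of the early embryo that are also expressed in a rare fraction of stem cells. Their 2 tiles were at 60.7% and 62.9% in N5 and N9 at t=0. The clone mean there was 49.97% ± 0.0490 at day 25 and 72.6% ± 1.96 for embryoid bodies (SD, n = 2). On chromosome 4, the autosome end with the most protein-coding genes (44) and CpG rows (median 133), the difference was between -4.95 and 0.882 points. On chromosome 8 it was -11.7 to -22.7 points, over 26 pairs only. The median over the autosomes was between -4.90 and -8.71 points by library.

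**Figure D4:**
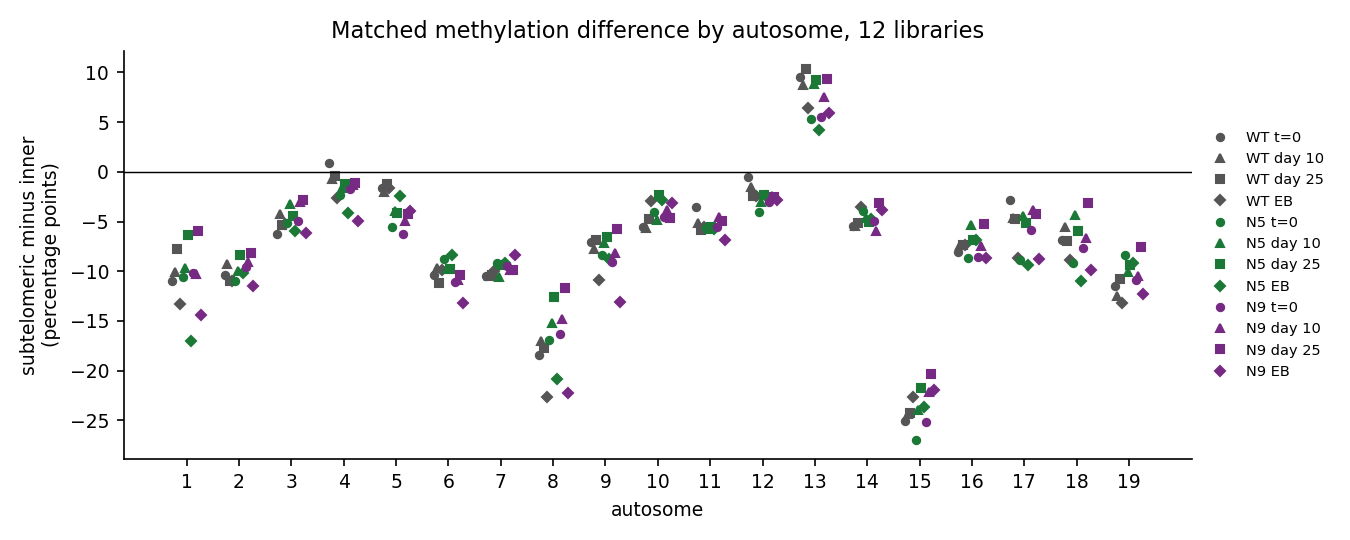
Difference in CpG methylation, subtelomeric minus matched inner tiles in percentage points (y), for each autosome (x) in 12 libraries; colour gives the line and marker shape the stage. Chromosome 15 lies at -20.4 to -27.0 points and is lowest in 10 of 12 libraries, chromosome 8 is lowest in the other 2, and chromosome 13 is above 0 in each library.

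Levels were higher further inside than in the last 1 Mb, but did not rise at every step. In the wild type at t=0 the pooled level was 55.9% in the last 1 Mb, 56.4% in the next and 60.6% at 3 to 4 Mb. It was 57.3% at 4 to 5 Mb and 65.2% at 10 to 11 Mb. In N5 and N9 it was 59.5% and 59.8% in the last 1 Mb and 70.0% and 70.1% at 10 to 11 Mb. At day 25 the same steps were at 44.6% and 44.5%, and at 53.3% and 52.3%. The median number of CpG rows per tile also differed along this path, from 58 in the last 1 Mb to 115 at 7 to 8 Mb, and its part in the profile was not tested. Within the last 1 Mb no steady slope was seen. Among 100-kb steps the matched difference was below 0 in every library in 9 of 10 steps, and above 0 in every library at 200 to 300 kb (1.56 to 3.43 points).

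The very tips were more methylated than the rest of the last 1 Mb. The last measured tile of each autosome, 19 tiles with a median of 24 CpG rows, was at 71.5%, 74.7%, 74.0% and 78.6% in the wild type by stage. In N5 the tips were at 77.4%, 75.7%, 65.4% and 78.7%, and in N9 at 79.0%, 74.8%, 65.0% and 85.1%. At day 25 they kept 83.4% of their t=0 level (clone mean), against 78.0% in the other 70 tiles of the last 50 kb and 74.4% in members beyond 100 kb. Members with fewer than 50 CpG rows, tips left out, kept 77.1%, so tiles with fewer than 50 rows were set side by side. Tiles lie on a fixed grid, so a tip that holds the highest position can span less than 10 kb. CpG number is then not CpG density, and the length spanned was not matched. Among tiles with fewer than 50 rows the tips went from 78.7% ± 1.30 to 65.8% ± 0.655 (17 tiles). The other members went from 71.0% ± 0.0553 to 54.7% ± 0.945, and inner tiles from 72.9% ± 0.0477 to 57.2% ± 0.622. In other libraries the distance between tips and inner tiles of that CpG number varied. The wild type had 70.9% in the tips and 70.5% in the inner tiles at t=0, and 77.7% and 76.9% in embryoid bodies. N5 embryoid bodies had 78.9% and 77.7%. The distance was wider in the wild type at day 10 (74.6% and 70.6%) and day 25 (75.1% and 70.1%). It was also wider at day 10 in N5 (76.7% and 69.5%) and N9 (75.4% and 68.8%), and in N9 embryoid bodies (84.9% and 80.6%). Coverage was lower at the tips, at a median of 3.74 calls per CpG row against 6.13 in members beyond 100 kb, and its part in the levels was not tested. The edgeR test called 14 of the 19 tips lower at day 25 and 16 higher in embryoid bodies (73.7% and 84.2%), where 95.1% and 99.4% of all tiles were.

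**Figure D5:**
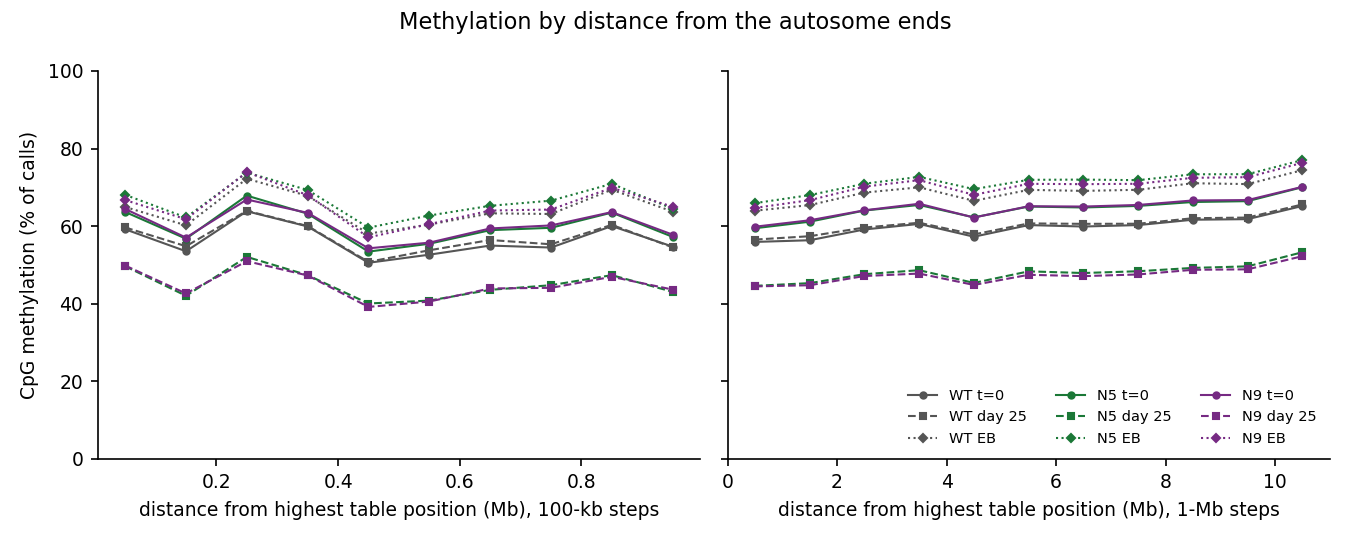
Pooled CpG methylation in percent of calls (y) by distance from the highest table position of the autosomes (x, Mb), in 100-kb steps over the last 1 Mb (left) and 1-Mb steps to 11 Mb (right), for t=0, day 25 and embryoid bodies of the wild type, N5 and N9. In the wild type at t=0 levels go from 55.9% to 65.2% over 11 Mb, with a dip to 57.3% at 4 to 5 Mb. The day-25 clones run lowest along the whole path.

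Differences between stages and lines were tested tile by tile with edgeR's quasi-likelihood test on methylated and unmethylated counts. The fit used all 248191 tiles, and a call is a Benjamini-Hochberg adjusted p under 0.05 over all of them. Each stage has 1 wild-type library, which was assumed to vary like the clones. From t=0 to day 25 in the clones, 1691 of 1821 members (92.9%) were called lower, where 95.1% of all tiles were. The median change over the members was -15.9 points, and over all tiles -16.5 points. Both clones were lower in 1785 of 1821 members and in 245379 of all 248191 tiles. N9, read on the same flow cell as the wild type at every stage, gave a pooled change of -15.4 points and N5 -14.9 points. The 130 members not called had a median of 87 calls in their shallowest library, against 234 in those called, and 29 of them were under 40% at t=0.

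The largest falls were in an odorant receptor gene tile, Olfr815 (chr10:129900001-129910000, 42 calls in the shallowest library), and in the tile of Gnb1, a G protein beta subunit (chr4:155510001-155520000). Olfr815 stood at 77.8% and 79.0% in N5 and N9 at t=0, and at 65.3% and 65.1% at day 10. It was at 50.5% and 33.3% at day 25, and embryoid bodies had 74.5% and 82.0%. The wild type there was at 69.1%, 76.5%, 62.9% and 81.5%. Gnb1 stood at 73.9% and 69.8%, 56.6% and 53.8%, 43.1% and 37.1%, and 72.6% and 71.7%, with the wild type at 61.7%, 63.4%, 58.5% and 74.2%. The falls were 36.4 points (edgeR adjusted p = 8.86e-05) and 31.7 points (adjusted p = 1.68e-09). In both tiles each clone was below all its other stages at day 25. Olfr811, Cacul1 and Cbx5 followed, with changes of -28.8, -28.7 and -28.2 points.

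The 9 Hoxc tiles were at a pooled 13.1% at t=0 and 10.4% at day 25 in the clones. Of them, 3 were called lower at day 25 and 9 higher in embryoid bodies, where 99.4% of all tiles were higher. Of all 33 members under 20% at t=0, 20 were called lower and 30 higher. Other gene groups at the ends, grouped by symbol after the gene names had been seen, are given beside the 95.1% of all tiles called lower at day 25. Of the 32 tiles of odorant receptor genes, smell receptors of the nose, 30 were called lower at day 25 (68.3% ± 0.861 to 52.3% ± 1.48). Vomeronasal receptor genes, which sense pheromones, had 11 of 13 tiles lower, and chemokine receptor genes of immune cells 14 of 15. All 7 tiles at Fgf3, Fgf4, Fgf15 and Ccnd1, growth factor and cell cycle genes on chromosome 7, were called lower (28.7% ± 0.122 to 20.1% ± 1.01). At Rtel1 5 of 5 tiles were lower (59.1% ± 2.19 to 39.5% ± 2.66), although its promoter stayed near 0. Receptor family members resemble each other, so that reads may be shared between copies.

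From day 25 to embryoid bodies 1793 members (98.5%) were called higher in the clones, where 99.4% of all tiles were. The median rise was 23.5 points in the members and 23.9 over all tiles. The largest was at Gm36079 (chr13:120020001-120030000, 236 CpG rows but 64 calls in the shallowest library). It stood at 34.1% and 24.0% in N5 and N9 at t=0, and both clones were at 32.3% at day 10. At day 25 it was at 30.7% and 17.4%, and embryoid bodies had 75.8% and 70.3%. The wild type was at 28.2%, 34.5%, 23.4% and 55.8%, and embryoid bodies were the highest stage in all 3 lines. The rise in the clones was 48.97 points (edgeR adjusted p = 5.10e-09). Next came Itgbl1 (43.2 points) and the Cbx5 tile, which encodes heterochromatin protein 1 alpha, at 39.3 points (adjusted p = 2.77e-13). The Cbx5 tile (chr15:103220001-103230000) went from 60.9% and 55.7% at t=0 to 29.6% and 30.6% at day 25 and to 70.7% and 68.0% in embryoid bodies. The other places among the 5 largest rises went to tiles of chromosome 3 with no protein-coding gene.

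At day 10 the change was small. In the clones 104 members (5.71%) were called lower, where 9.67% of all tiles were, and 1 was called higher, where 0.0342% were. The median change was -4.05 points. The called members had a median of 495 calls in their shallowest library, against 212 in the others. The calls at day 10 were lost with limma on log2 odds and with a flow cell term beside the clone term (0 members each). They also fell to 0 without N5 at day 10, to 2 without N5 at t=0 and to 5 without N9 at t=0. The 1 rise was at Hmgcs1, the cytosolic enzyme that makes HMG-CoA for cholesterol synthesis (chr13:119690001-119700000). Its levels were 22.3% and 27.0% at t=0 and 36.0% and 39.2% at day 10 in N5 and N9, then 24.6% and 34.1% at day 25. The wild type there was at 30.9%, 37.0%, 40% and 35.5% (edgeR adjusted p = 0.00843 for the change in the clones).

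Against the wild type at day 25, 1185 members (65.1%) were called lower in the clones, where 74.5% of all tiles were. Their count was 511 with a flow cell term beside the clone term. A fit with a clone term sets N5, and not the clone mean, against the wild type, so its count answers another question. The 3 largest differences were at Macc1 (-34.9 points), at a chromosome 18 tile with no gene and 32 calls in its shallowest library (-34.8), and at Fgf14 (-32.5, 33 calls). In the Fgf14 tile N5 was at 36.9% and N9 at 67.9% at day 25, so the clones were far apart there. At t=0, 20 members (1.10%) were called higher in the clones, where 1.46% of all tiles were. With the clone as a block, which sets N5 against the wild type, the count was 7. Among the 20 members the tile of Gm9631 near the end of chromosome 11 (chr11:121900001-121910000) was at 66.7% and 74.0% in N5 and N9. The wild type was at 48.2% there (edgeR adjusted p = 0.0203). It was also the largest excess in embryoid bodies, at 74.3% and 74.4% against 48.4% (adjusted p = 0.00208).

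At day 10 there was 1 member called lower than the wild type, where 0.0822% of all tiles were. It lies in Stard13 (chr5:151350001-151360000), with 55.3% and 55.1% in N5 and N9 and 76.7% in the wild type (edgeR adjusted p = 0.0473). In embryoid bodies 4 members were called higher in the clones and 3 lower, where 0.305% and 0.0673% of all tiles were. Those higher included Gm20783 (20.3 points) and Mrgprd, a receptor of pain-sensing neurons (16.0 points, adjusted p = 0.0267). The 3 lower ones were the tile of Nckap1l and Pde1b on chromosome 15 (-18.2 points), another Stard13 tile (-17.3) and a Dok6 tile on chromosome 18 (-13.0). In each of those 3 the wild type gained from day 25 to embryoid bodies and ended above both clones, as at that Stard13 tile with 46.8% against 30.7% and 28.3%. The calls at t=0, day 10 and in embryoid bodies were 0 with limma.

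The change between stages was also compared between the clones and the wild type. From t=0 to day 25 the clones fell relative to the wild type in 1059 members (58.2%), where 67.4% of all tiles did. From day 25 to embryoid bodies they rose by more in 933 members (51.2%), where 61.2% of all tiles did. They rose by less in 3 members (0.165%), where 0.0149% of all tiles did, and limma called 1. From t=0 to day 10 edgeR called 0 members and 0.0% of all tiles, with 190 members at an unadjusted p under 0.05, and limma called 0 with 169. In the wild type the pooled members moved by 0.599 points from t=0 to day 25 and by 7.45 points from day 25 to embryoid bodies. The clones moved by -15.1 ± 0.373 and 20.8 ± 0.773 points (SD, n = 2). The shares of members called lay below those over all tiles for the fall to day 25 and the larger rise in embryoid bodies. Members had fewer CpG rows (median 58 against 75 over the autosomes). Matched members and matched inner tiles both had a median of 70 rows. Among them the fall relative to the wild type was called in 62.7% of members and 69.6% of inner tiles. The larger rise in embryoid bodies was called in 55.7% and 61.2%. The part of CpG number in the shares was not tested.

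Genes that act at telomeres and subtelomeres were read at 1 tile each, in lists of shelterin, telomerase and CST genes (23 measured of 23) and of subtelomeric chromatin genes (28 of 34). The tile was that of the gene start for 18 and 25 of them, and that of the CpG-denser gene end for the other 5 and 3. Of these only Rtel1 and Cbx5 lie among the members. At day 25, 23 of 23 and 27 of 28 were called lower in the clones, where 95.1% of all tiles were, with median changes of -10.3 and -9.04 points against -16.5 points over all tiles. In embryoid bodies 21 of 23 and 28 of 28 were called higher than at day 25, where 99.4% of all tiles were, with medians of 10.7 and 10.3 points against 23.9. Most of the list tiles were those of gene starts, so all tiles are an unlike background for these medians. Over the 15787 autosomal tiles with a gene start the pooled clone mean was 38.3% at t=0. There it was 26.6% at day 25 and 42.2% in embryoid bodies. The Rtel1 start tile went from 24.4% at t=0 to 11.0% at day 25 and 26.4% in embryoid bodies (edgeR adjusted p = 4.75e-08 for the fall). Tert, the telomerase reverse transcriptase, went from 53.0% to 34.7% and 59.4% (adjusted p = 6.12e-07). Cbx5 went from 30.04% to 14.6% and 32.2% (adjusted p = 1.59e-06), and Dnmt3a, which methylates new sites, from 33.5% to 16.6% and 28.1% (adjusted p = 6.46e-08). The Tet2 tile did not pass at day 25 (-2.36 points, adjusted p = 0.106). Methylation of a tile does not give the expression of its gene.

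The libraries held 102896335 to 191210205 calls, and a member had a median of 5.81 calls per CpG row. The N5 libraries of t=0, day 25 and embryoid bodies came from another flow cell than the other 9. In members the 2 wild-type runs of a stage differed by 0.302 to 0.483 points, and the chi-square per degree of freedom between them was 1.64 to 1.78, against 1.92 to 2.54 between the clones. At gene ends of 8 pluripotency genes the median level was 3.23% and 2.69% in N5 and N9 at day 25. It was 9.73% to 15.6% in the other iPS libraries and 6.18% to 11.9% in embryoid bodies. At gene ends of 9 fibroblast genes, which could mark feeder cells, it was 7.33% to 13.2% in iPS stages and 22.7% to 26.4% in embryoid bodies. Their part in the results was not tested.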

How the data were processed

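Oxidative bisulfite sequencing gave 12 libraries (24 samples, 2 lanes each) from 3 mouse lines at 4 stages. Per the submitters' processing notes, BWA, Picard 1.91 and build mm10 were used; which methylation caller was run is not stated there. The authors deposited 1 table of raw counts, with methylated calls and all calls at each CpG position in 32 value columns, all of them used and 0 left over. The 2 column pairs of a wild-type stage were taken as lanes of 1 library and summed, since the sample titles share index and flow cell. The column headers label these pairs rep1 and rep2, and do not say that they are lanes. If they were instead 2 libraries, n for the wild type would be 2.

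Calls were summed in 10-kb tiles beyond the first 3 Mb of chromosomes 1 to 19 and X. Tiles with 5 or more CpG rows and 30 or more calls in every library were kept. Each member was matched, from the most CpG rows down and without reuse, to the inner tile of its chromosome with the nearest CpG number within 20%. Levels are pooled calls, so CpG-dense and deep tiles weigh more, and n counts libraries. Pooled member levels rest on 611407 to 1142829 calls per library, which gives 95% Wilson intervals such as 56.4 to 56.7% in the wild type at day 25.

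edgeR 4.0.16 (quasi-likelihood test on methylated and unmethylated counts, 8 groups, 4 residual degrees of freedom, common dispersion 0.00581) was fitted to all 248191 tiles with Benjamini-Hochberg adjustment, in 10 comparisons. Data were also simulated for the day 25 against t=0 comparison, with 200 of 20000 tiles changed. There edgeR recovered 49 of 50 tiles changed by 2 on the log2 odds scale in each direction. It recovered 17 and 19 of 50 changed by -1 and 1, with 6 false calls. In the real data 95.1% of all tiles were called lower in this comparison, so the recovered counts hold for the simulated setting only. The clones are the same cell lines at every stage, so they pair across stages by line. Across the 1821 members the N5 minus N9 differences of 2 stages correlated by -0.0305 to 0.0658. Alternatives were the clone as a block, a flow cell term, limma 3.58.1, other coverage limits, windows, grids and matchings, and leaving out each clone library or autosome.

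The members and gene lists were chosen with earlier results of these data known. Named tiles are the 5 largest called changes per direction in the 3 stage comparisons of the clones, with both clones moving alike, and the 3 largest in the others. Also named are the member with the most CpG rows, the member nearest each chromosome end (given here as a group), and list genes with an adjusted p under 0.05, at most 4 a list. The promoters shown, the gene groups at chromosome ends and Tet2 were chosen after values or names were seen. Promoter sequences are from RefSeq (GRCm38.p6). Python 3.11.15, numpy 2.4.6, pandas 2.3.3, scipy 1.17.1 and matplotlib 3.10.9 were used.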

Additional observations from a re-analysis of the deposited data

Results flagged for a closer look

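In 1059 members the clones' change between t=0 and day 25 was below that of the wild type (edgeR interaction test, adjusted p under 0.05), where 67.4% of all tiles passed in that direction. The change from day 25 to embryoid bodies differed in the other direction in 933 members, which rose by more in the clones. In 3 members it was smaller in the clones: a tile of Dok6 on chromosome 18, a tile of chromosome 16 with no gene and a tile near the end of chromosome 11. In the chromosome 16 tile the wild type went from 42.6% to 78.6%, N5 from 50.4% to 56.6% and N9 from 30.2% to 58.4%. In 920 members both clones were lower at day 25 than at t=0 while the wild type was higher, a count for which the difference was not tested. That is 50.5% of the members, and 50.9% of all tiles moved so. No group held 4 or more libraries, so no test of a library standing apart was run.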

How the results depend on the processing

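The shares of members called in the clones for the fall to day 25 and the rise in embryoid bodies, and for both differences of these changes from the wild type, stayed within 1.5 times of the reported shares under every alternative run. The 3 members that rose by less in the clones than in the wild type were 1 with limma and 2 without N5 at day 25, N9 at day 25 or N9 embryoid bodies. Other shares of members called moved. For day 10 against t=0 (5.71%) the share was 0.0% with limma and with the replicate block plus flow cell term, and 0.0% to 5.38% without single libraries. For clones against wild type at t=0 (1.10%) it was 0.384% with the replicate block, 0.0% with the block plus flow cell term and with limma, and 0.165% without either clone. At day 10 (0.0549%) it was 0.0% with limma, with the block plus flow cell term and without either clone, and 0.110% without CpG rows over 60 calls. At day 25 (65.1%) the block plus flow cell term gave 28.1%. In embryoid bodies (0.220%) that term and limma gave 0.0%, and leaving out a clone gave 0.0549% to 0.220%. For the change to day 10 against wild type, leaving out a library gave 0.0% to 0.220%. In the comparisons of clones with wild type at a stage, a fit with the block sets N5, not the clone mean, against the wild type. The replicate block changed no other call by over 1.5 times. The cause was not tested in any of these.

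The mean difference of -8.02 points between members and inner tiles stayed below 0 in 12 of 12 libraries under every alternative. It was -5.95 points with no matching, -4.77 as a mean of tile levels, -8.71 with 100 calls or with tiles shifted by 5 kb, -8.59 on CpG rows called in every library, -6.96 in the last 500 kb, -7.20 in the last 2 Mb and -7.26 matched on tile content. Leaving out an autosome gave -8.97 (chromosome 13) to -6.61 (chromosome 15). The change to day 25 (1.80 points) was 2.16 with inner tiles counted from the highest position, 2.27 with no matching, 2.22 matched on gene body, 0.833 as a mean of tile levels, 2.26 with shifted tiles, 1.42 in the last 2 Mb and 2.13 matched on tile content. Leaving out an autosome or library gave 1.51 to 2.05. The widening in embryoid bodies (-1.26 points) missed p 0.05 as a mean of tile levels (-0.157), on rows called in every library (-1.09), with shifted tiles (-1.26), in the last 2 Mb (-0.676), and with inner tiles reused (-1.11) or taken from any autosome (-1.06). Leaving out an autosome or library gave -1.52 to -0.899, and it missed p 0.05 without chromosome 4 and without N5 or N9 at day 10. Without an embryoid body library 16 assignments cannot go below 0.0625. Those on reuse, any autosome and tile content were added after seeing the data. Depth limits single tiles: under 100 calls in the shallowest library, 73 of the 130 members not called at day 25.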

Other observations

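Some promoters at the autosome ends stood higher in embryoid bodies than before DOX, among them 1 of Nadk and that of Helz2 in all 3 lines. The promoter of Nadk, NAD kinase (chr4:155562131-155562430, 4 CpG rows), was at 32.3% in the wild type and 32.6% and 45.1% in N5 and N9 at t=0. It stood at 26.2%, 45.8% and 75.0% at day 10 and at 44.1%, 19.7% and 31.4% at day 25. Embryoid bodies had 74.5%, 78.6% and 63.0%. Another annotated Nadk promoter with 24 CpG rows (chr4:155563565-155563864) had no methylated call in 11 of the 12 libraries and 2.00% in N9 at day 25. The promoter of Helz2, a helicase of the interferon response, was at 2.74% in the wild type and 7.50% and 9.09% in N5 and N9 at t=0. In embryoid bodies it was at 25.7%, 13.0% and 28.8%. At Isg15, a ubiquitin-like protein induced by interferon, the clones were at 29.4% and 32.7% at t=0 and 10.8% and 17.4% at day 25. Their embryoid bodies had 56.6% and 46.2%, while the wild type was at 39.1% at t=0 and 32.2% at day 25 and, unlike the clones, stood in embryoid bodies at 40%, within 1 point of t=0. These promoters were picked after their values were seen and rest on 23 to 46 calls in the shallowest library, and no test was run on them.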
